A study of Arabidopsis thaliana with 28 samples.

Results

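The genes described here are those of the Arabidopsis thaliana chloroplast genome, read from an Affymetrix array of seedling shoots. Members were the genes with a chloroplast locus tag in the annotation whose probe set had a log2 value above 4 in at least 4 arrays, with 1 probe set per gene. Of 76 chloroplast genes with a probe set 73 passed, out of 14577 features tested. The other genes with a probe set, ndhB and ndhF of the NDH complex and rps14 of the ribosome, had mean log2 levels of 3.03, 2.84 and 3.43 and passed the level in no array.

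The 28 arrays came from the whole aerial part of plants of the accession Ws-2, 4 arrays for each of 7 groups. Warm groups were the wild type and plants overexpressing CBF1 (CBF1OX), CBF2 (CBF2OX), CBF3 (CBF3OX) or CBF2Δc, a truncated CBF2, all raised on agar at 22 °C for 11 d in continuous light of about 100 µmol per square metre per second. Cold groups were the wild type and the CBF2Δc plants, which received a further 24 h at 4 °C in light of about 35 µmol per square metre per second. Temperature, light level and age therefore changed together, and their parts cannot be told apart. Every construct was present as 2 lines with 2 arrays each (G5 and G39, E2 and E24, A28 and A30, DN89 and DN96 in the order of the constructs above). The sources used here name neither the promoter of the constructs nor any pooling of plants. The labels call the 4 arrays of each group biological replicates. The p-values cover only the variation among these arrays.

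The chloroplast genome encodes core proteins of the photosynthetic complexes, the large subunit of Rubisco, a bacterial-type RNA polymerase and part of the plastid ribosome, while the remaining subunits and the regulators come from the nucleus. Most of its genes are transcribed together as multi-gene units that are then cut, spliced and edited, and the amount of a plastid mRNA depends on transcription and on its stability. CBF1, CBF2 and CBF3 are nuclear transcription factors of cold acclimation that bind the CRT/DRE promoter element. Plastid mRNAs carry few poly(A) tails, which in plastids mark RNA for decay, and RNA amplification kits of the kind used here prime on poly(A). The values below are therefore of the amplified plastid RNA, and the part of tail length in them was not tested.

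All levels are log2 GCRMA values, and a difference of 1 is 2-fold. The members had a median level of 10.33 over all arrays against 6.43 for all features, and 71 of 73 were above 4 in all 28 arrays. The exceptions were petD, above 4 in 23 arrays with a mean of 4.15, and psaC, above 4 in 27 arrays with a mean of 5.18. The probe sets with the strongest signal were those of atpE (13.54), psaB (13.13) and rps4 (12.99), which does not rank the transcripts because probes differ in affinity. Array medians over all probe sets ran from 4.98 to 5.08. Of 8 leaf marker genes 2 were measured and both were bright in warm wild type, RCA at 13.56 ± 0.07 and LHCB4.2 at 10.90 ± 0.32 (SD, n = 4). Of 5 root markers 3 were measured, and in warm wild type the root hair genes EXPA7 and EXPA18 stood near the filter at 4.31 and 4.50 while PYK10, a gene also known from seedling shoots, stood at 11.81.

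Plastid RNA was lower in the cold in both genotypes that were tested, with small differences among the warm groups. The mean level over the 73 members was 10.41, 10.31, 10.14 and 10.06 in the warm wild-type arrays and 9.76, 9.64, 9.47 and 9.35 in the cold ones. In CBF2Δc plants it was 10.08, 9.97, 10.21 and 9.99 in warmth and 9.57, 9.60, 9.72 and 9.46 in cold. The 8 cold arrays lay below each of the 8 warm arrays of these genotypes, and the group means were 10.23 ± 0.16 and 9.56 ± 0.18 for wild type and 10.06 ± 0.11 and 9.59 ± 0.11 for CBF2Δc (SD, n = 4). The CBF1OX, CBF2OX and CBF3OX means were 10.00 ± 0.10, 10.03 ± 0.23 and 10.03 ± 0.20, and their arrays overlapped those of warm wild type. Replicate 2 of CBF2OX, at 9.75, lay within the range of the cold wild-type arrays. In these whole shoots fewer plastid-rich cells, fewer genome copies and less RNA per copy cannot be told apart.

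**Figure D1:**
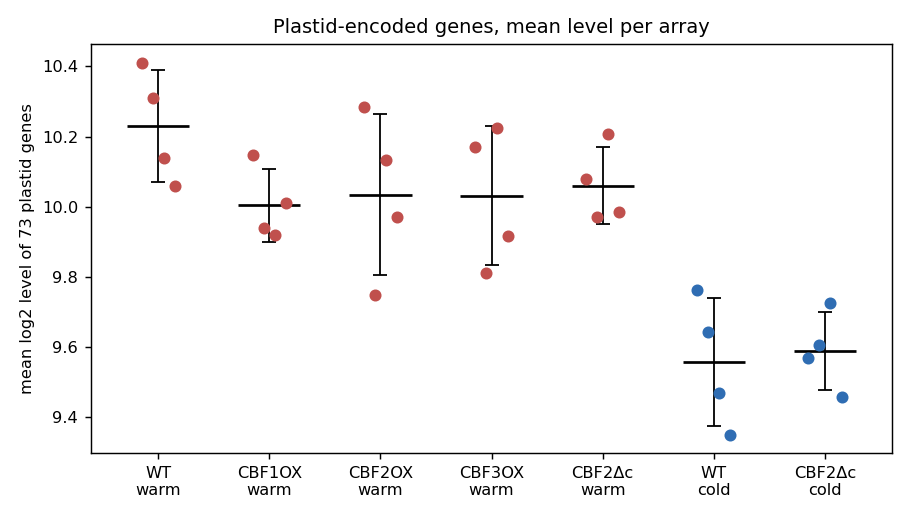
Mean log2 level of the 73 plastid-encoded genes in each array (points), with the mean of the 4 arrays (line) and their SD (bars), for the 7 groups. Warm arrays are red and cold arrays blue. The cold arrays of both genotypes lie at 9.76 or below, as does warm CBF2OX replicate 2 (9.75).

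In wild type 71 of 73 members had a lower mean in the cold, with a median log2 change of -0.64 against -0.04 for all features. In what follows a gene "fell" or "rose" if its Benjamini-Hochberg adjusted p over all features was below 0.05 in the limma fit, and was "called" if it also changed at least 2-fold. By the first rule 58 members fell, 79.5% of them against 28.5% of all features, and 1 rose. By the second rule 14 were called lower, where 9.66% of all features were, and 1 was called higher, where 8.73% were. Those shares rose with signal. Features not annotated as plastid genes were taken in the level ranges of the dimmest 25, the middle 24 and the brightest 24 members. Of these features 29.0%, 44.1% and 60.1% fell and 9.80%, 18.5% and 19.7% were called lower. Of the members in the same ranges 8, 4 and 2 were called lower, 19.2% of all members. Only in the dimmest range were members called lower more often than the other features. The 4 cold arrays lay wholly below the 4 warm arrays for 48 members and wholly above them for 1. The share of all features that separated in this way was not counted, so these counts describe the members alone. The shift was thus broad and mostly of less than 2-fold: the middle of the members lay between -0.97 and -0.44 (quartiles), and the 95% interval of 35 members lay within 2-fold in either direction. The 14 became 9 without cold replicate 4 and 21 without warm replicate 4 or without cold replicate 1. After each array was centred on the members themselves, the median of all features became 0.85, the members' median became 0.25 and 0 members were called lower. Relative to the median of all features the members stood at -0.60 as deposited. That centring moves every feature of an array alike, so it leaves this relative value unchanged by construction and is no test of it.

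The largest fall was that of rps18, which encodes a protein of the small ribosomal subunit. It read 7.71, 8.14, 7.49 and 7.44 in warm wild type and 6.26, 6.17, 5.78 and 5.77 in cold. The change was -1.70 ± 0.16 (SE, adjusted p = 3.19e-09). Its neighbour rpl33, for a protein of the large subunit, went from 11.13, 10.98, 11.10 and 11.04 to 10.20, 9.84, 9.80 and 9.62, a change of -1.20 ± 0.12 (adjusted p = 7.92e-09). The ribosomal genes were otherwise spread. All 9 measured genes of the large subunit fell, with a median of -0.71, and 2 of them were called, rpl33 and rpl16 (-1.01), whose call ended under 7 of 22 alternatives. Of 9 genes of the small subunit 6 fell and 1 rose, with a median of -0.48, and rps2 (-0.33) and rps4 (-0.24) did not pass.

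The riser was rps16, which is annotated for another protein of the small subunit and contains an intron. It read 6.58, 6.70, 6.40 and 5.22 in warm wild type and 7.11, 7.57, 7.33 and 7.71 in cold, a change of 1.21 ± 0.23 (adjusted p = 9.15e-05). The groups did not overlap, and the warm array at 5.22 stood apart from the others. Without it the change was 0.87, under 2-fold. The CBF2Δc plants, which share no array with wild type, gave 6.83, 6.27, 6.71 and 6.51 in warmth and 7.47, 7.82, 7.58 and 7.57 in cold, a change of 1.03 ± 0.23 (adjusted p = 5.31e-04).

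Photosystem II splits water and passes electrons to the plastoquinone pool, and all 15 of its measured genes fell in wild type, with a median of -0.72. Of these 4 were called. The gene of the antenna protein CP47, psbB, read 10.03, 9.90, 9.57 and 9.71 in warmth and 9.02, 8.63, 8.20 and 7.59 in cold (-1.44 ± 0.26, adjusted p = 5.08e-05). The gene of the reaction centre protein D2, psbD, went from 9.97, 9.73, 9.31 and 9.15 to 9.06, 8.25, 7.89 and 7.89 (-1.27 ± 0.29, adjusted p = 6.36e-04). For psbC, which encodes the antenna protein CP43, all warm arrays lay between 12.54 and 12.89 and all cold arrays between 11.49 and 11.77 (-1.07 ± 0.13). The fourth was psbN (-1.16 ± 0.17), which encodes an assembly factor and lies on the strand opposite its neighbours psbT and psbH. The smallest fall was that of psbA, the gene of the D1 protein that is replaced during repair, at -0.43 ± 0.17 (adjusted p = 0.0362), with warm and cold arrays overlapping.

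The NDH complex carries electrons around photosystem I, and its 9 measured genes all fell, with the lowest median of the complexes with more than 1 gene, -0.86. The gene ndhH read 7.12, 6.81, 6.82 and 6.56 in warmth and 5.96, 5.80, 5.07 and 4.96 in cold (-1.38 ± 0.24, adjusted p = 3.59e-05). The groups were well apart, as they were for ndhA, at 9.59 to 9.75 in warmth and 8.34 to 8.92 in cold (-1.06 ± 0.15, adjusted p = 1.30e-06). The third called gene of the complex was ndhG (-1.02), one of the 3 dimmest members with a mean level of 5.94, whose call ended under 7 of 21 alternatives, and ndhI had the smallest change (-0.43).

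The cytochrome b6f complex joins the photosystems, and 4 of its 6 genes fell, with a median of -0.56. The genes of the small subunits petL and petG were called at -1.25 ± 0.17 (adjusted p = 8.64e-07) and -1.17 ± 0.22 (adjusted p = 6.18e-05). For petL the warm arrays read 9.72, 9.74, 9.67 and 9.42 and the cold ones 8.64, 8.48, 8.22 and 8.20. The genes of the large subunits cytochrome b6 and cytochrome f, petB and petA, fell by 0.60 and 0.45, and petD, for subunit IV, had a change of 0.04 from a level at the filter. The gene of another small subunit, petN, stood at -0.52 (adjusted p = 0.0626). Of the ATP synthase genes 5 of 6 fell, with a median of -0.78. The called one was atpF, for subunit b of the membrane part, at 10.21 to 10.78 in warmth and 8.95 to 9.50 in cold (-1.10 ± 0.18, adjusted p = 1.37e-05), whereas atpE, for the epsilon subunit, stood at -0.14 (adjusted p = 0.462).

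Photosystem I, the RNA polymerase and Rubisco had the smaller shifts. Of 5 photosystem I genes 3 fell and none was called, with a median of -0.38. The reaction centre gene psaA had the largest change (-0.88) and psaJ the smallest (-0.18, adjusted p = 0.293). Of the assembly factors of this complex, ycf4 was called at -1.11 ± 0.27 (adjusted p = 0.00114; -0.94 without cold replicate 4) and ycf3 stood at -0.20 (adjusted p = 0.494). Of the 4 subunit genes of the plastid RNA polymerase 1 fell, rpoA at -0.64 ± 0.14, while rpoB, rpoC1 and rpoC2 stood at -0.10, -0.32 and -0.39. The gene of the Rubisco large subunit, rbcL, changed by -0.19 ± 0.18 (adjusted p = 0.414, 95% interval -0.57 to 0.19), and its warm and cold arrays overlapped. Of the 7 other genes 5 fell. They included cemA (-0.99), for an envelope protein, whereas ccsA (-0.07), for cytochrome c assembly, did not pass. The differences between complexes were not tested.

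**Figure D2:**
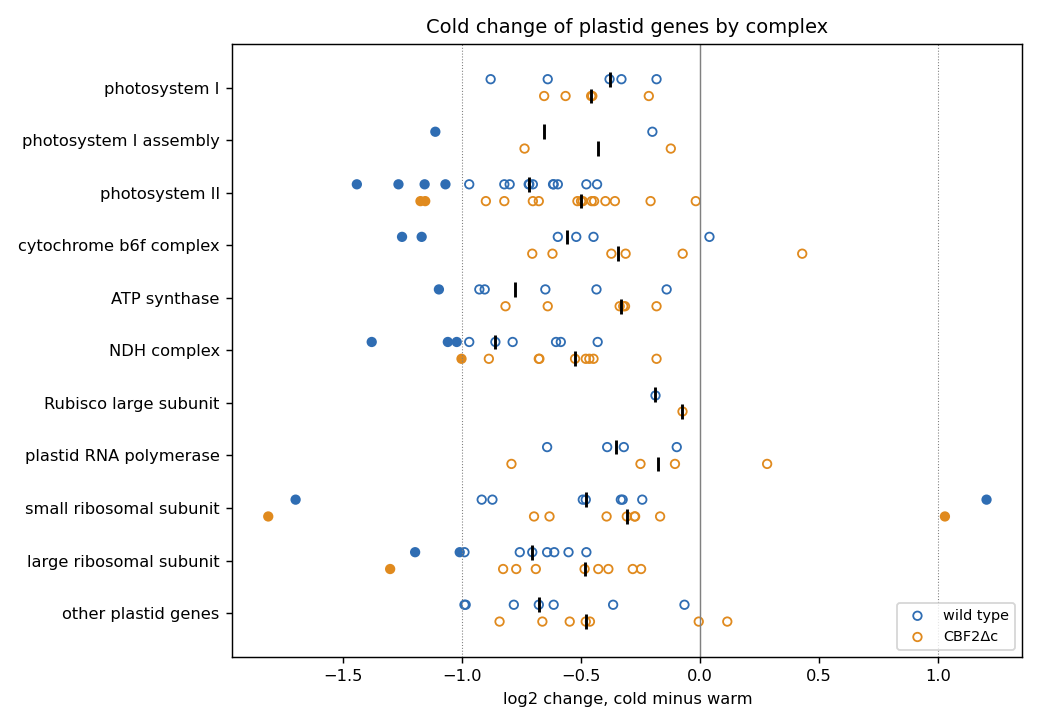
Log2 change in the cold of each plastid-encoded gene (points) by complex, for wild type (blue) and CBF2Δc plants (orange), with the median of each row as a black bar. Filled points are called genes, dotted lines mark 2-fold, and most points lie between no change and a 2-fold fall in both genotypes.

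The change was not even along the transcription units. In the unit psbB-psbT-psbH-petB-petD the wild-type changes were -1.44, -0.97, -0.80, -0.60 and 0.04 in the order of transcription, a smaller fall with each gene, and the last gene was at the filter. In CBF2Δc plants they were -0.68, -0.82, -0.50, -0.31 and 0.43, with psbT below psbB. In psbD-psbC-psbZ they were -1.27, -1.07 and -0.72. The unit petL-petG-psaJ-rpl33-rps18 held 4 called genes (-1.25, -1.17, -1.20 and -1.70) around psaJ at -0.18, which is read from a bright probe set. In ndhH-ndhA-ndhI-ndhG-ndhE-psaC-ndhD the changes were -1.38, -1.06, -0.43, -1.02, -0.86, -0.38 and -0.79. The rps2-atpI-atpH-atpF-atpA unit had -0.33, -0.90, -0.93, -1.10 and -0.65, and rpoB-rpoC1-rpoC2 had -0.10, -0.32 and -0.39. Some of these units shared a direction with a spread much larger than the SE of about 0.18, but probe sets differ in level and in response, so differences within a unit are those of the probe set values. Differences between genes of a unit were not tested.

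**Figure D3:**
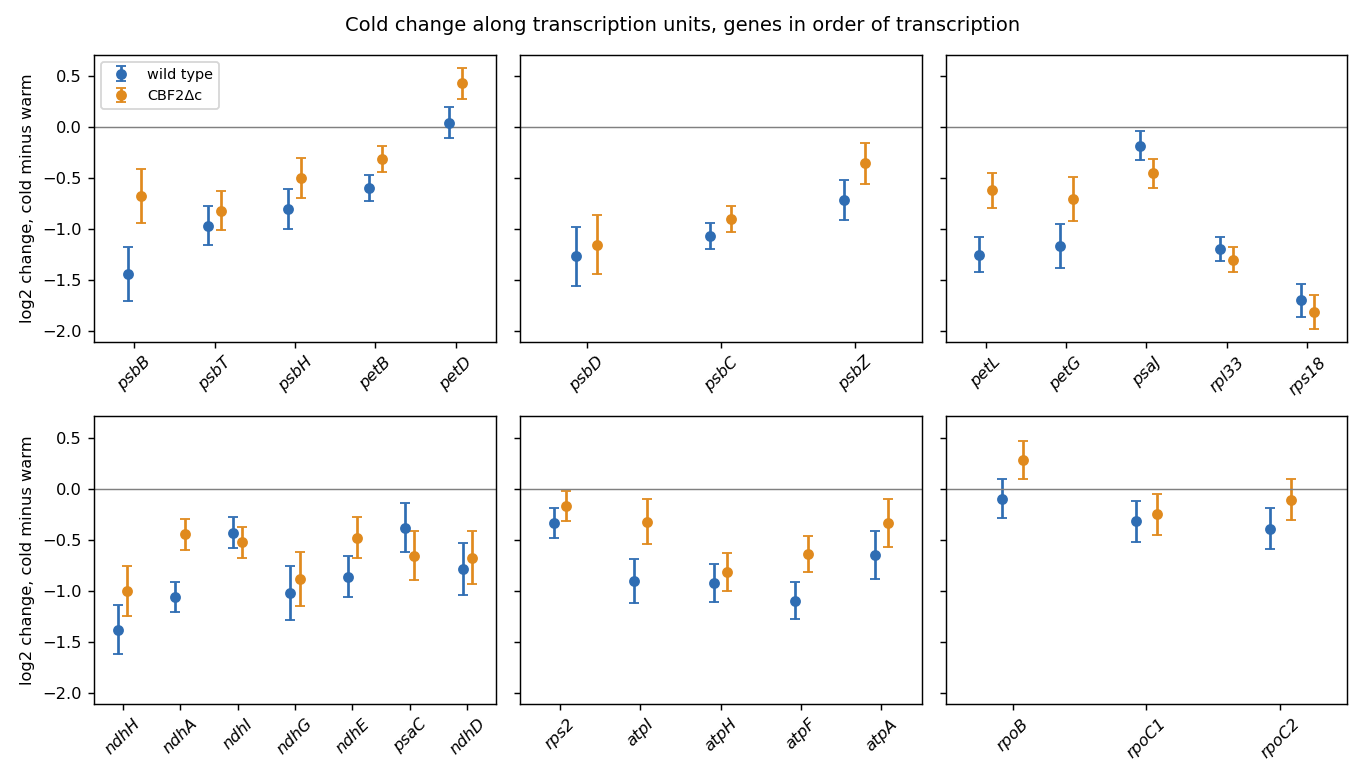
Log2 change in the cold, with its SE (bars), for genes of 6 transcription units in the order of transcription, in wild type (blue) and CBF2Δc plants (orange). In wild type the falls become smaller from psbB to petD, and rps18 and rpl33 stand below psaJ in both genotypes.

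The size of the change also went with signal strength. Among the 25 dimmest members by warm wild-type level the median change in wild type was -0.87 with 8 called, among the middle 24 -0.71 with 4 called, and among the brightest 24 -0.49 with 2 called. Features not annotated as plastid genes that lay in the same level ranges had medians of -0.05, -0.26 and -0.52 over 12406, 712 and 178 features. The bright members thus had a median close to that of other bright features, and the dim and middle members had lower medians than other features of their range. Marker genes also moved with the cold in wild type. The leaf markers had summed levels of 23.96 to 24.82 in warm and 21.48 to 22.73 in cold arrays, with LHCB4.2 at a change of -1.85 and RCA at -0.48. The root markers had 19.75 to 21.41 and 18.30 to 19.79. The part of either list in the fall of the plastid genes was not tested. Control probe sets for the ends of transcripts did not separate the groups: the 3′ minus 5′ difference of GAPDH was 0.49 to 1.19 in warm and 0.78 to 1.24 in cold wild type, and that of actin 1.44 to 1.89 and 1.42 to 1.63. The control for cytosolic 25S rRNA, an RNA with few tails, read 7.26 to 8.68 and 7.54 to 8.76.

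Plants overexpressing CBF2Δc showed the same kind of response to cold, at a smaller median. Of 73 members 69 were lower in cold than in warm CBF2Δc plants, with a median of -0.46 against -0.04 for all features (0.15 against 0.57 after centring on the members). There 48 members fell, 65.8% of them against 28.1% of all features, and 2 rose, where 24.2% of features did. Of the features not annotated as plastid genes 28.8%, 38.6% and 50.0% fell in the dimmest, middle and brightest level ranges used for wild type. At 2-fold 5 members were called lower, 6.85% of them and thus a smaller share than the 8.98% of all features, and 1 higher (9.07%). In the dimmest range 4 members were called lower, where 9.36% of the other features were. In the brightest range 0 were, against 13.5%, and the middle range held 1. The called ones were rps18 (-1.82 ± 0.16, adjusted p = 1.05e-09), rpl33 (-1.30 ± 0.12), psbN (-1.18 ± 0.17), psbD (-1.16 ± 0.29) and ndhH (-1.0025 ± 0.24, a call that ended under 7 of 21 alternatives), with rps16 higher. For rps18 the CBF2Δc arrays read 7.55, 7.62, 7.86 and 7.42 in warmth and 5.75, 5.87, 5.94 and 5.63 in cold, with no overlap. For rpl33 they read 11.06, 10.93, 10.95 and 10.94 and then 9.92, 9.65, 9.73 and 9.37, again with no overlap. The second gene that rose was petD (0.43), from 3.94 ± 0.16, below the filter, to 4.38 ± 0.37. The 5 became 3 without warm replicate 3, and the call of rps16 ended without replicate 2 of either group.

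The 5 genes called lower in CBF2Δc plants were all called in wild type, where they made up 35.7% of the 14. In both genotypes 45 genes fell, 77.6% of the wild-type list and 93.8% of the CBF2Δc list. Of all members 79.5% fell in wild type. Across the 73 genes, which are not independent replicates, the changes of the 2 genotypes correlated with Pearson's r = 0.84 and Spearman's rho = 0.78. No array is shared between the genotypes, but probe sets, normalization and transcription units are. The overlap and the correlation over all features were not computed, so these values describe the members alone. By complex the CBF2Δc medians were -0.50 for photosystem II, with 11 of 15 genes lower, -0.53 for NDH with 8 of 9, -0.49 for the large ribosomal subunit with 7 of 9, and -0.33 for the ATP synthase with 2 of 6. Photosystem I had -0.46 with 3 of 5, the cytochrome b6f complex -0.34 with 4 of 6, and the RNA polymerase -0.18 with rpoA alone (-0.79). In CBF2Δc plants the GAPDH 3′ minus 5′ difference given above did separate the groups, at 1.07 to 1.37 in warm and 0.56 to 0.96 in cold arrays. That of a second pair of GAPDH probe sets overlapped (-0.52 to -0.33 and -0.75 to -0.43), as did that of actin (1.23 to 1.88 and 1.20 to 1.84). The part of the separating difference in the result was not tested. The root markers had summed levels of 18.08 to 20.94 in warmth and 16.68 to 18.17 in cold, and the leaf markers 24.11 to 25.25 and 21.54 to 22.64.

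**Figure D4:**
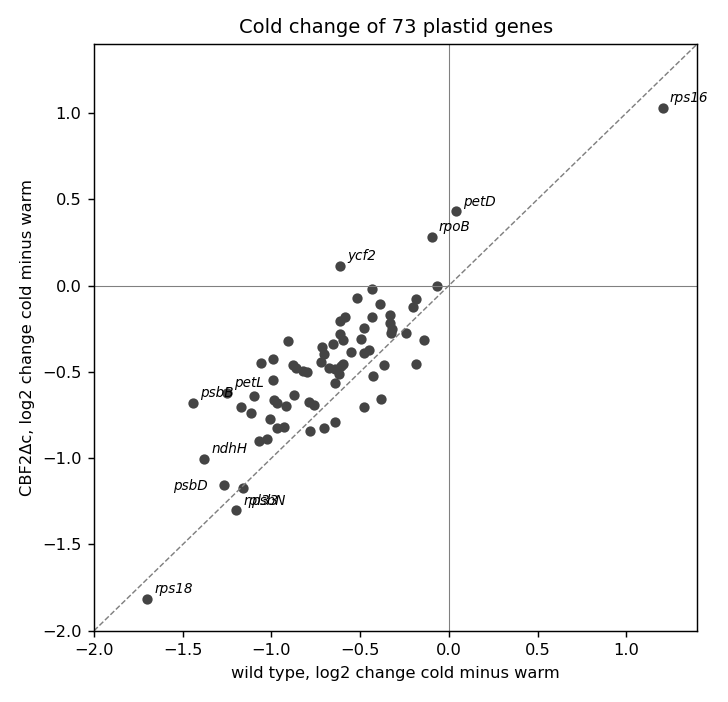
Log2 change in the cold of the 73 plastid-encoded genes in wild type (horizontal axis) and in CBF2Δc plants (vertical axis), with 1 point per gene and the line of equal change dashed. Of the 73 points 59 lie above the line, where the wild-type change is the more negative, and rps18 and rps16 mark the 2 ends.

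**Figure D5:**
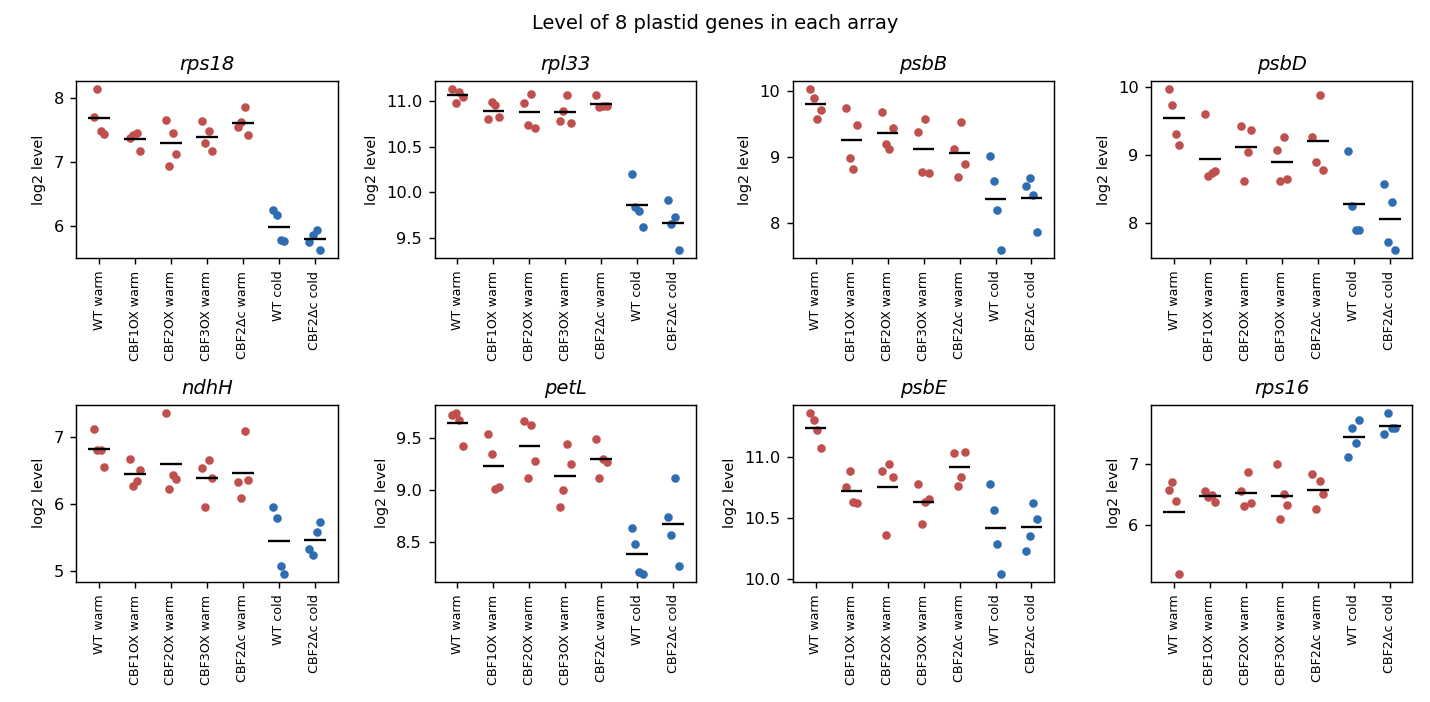
Log2 level of 8 plastid-encoded genes in each of the 28 arrays (points, warm red and cold blue) with group means (lines), and a separate vertical axis for each gene that does not start at 0. In rps18, rpl33 and rps16 the cold arrays of both genotypes stand apart from every warm array.

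The response to cold was not shown to differ between CBF2Δc and wild type. In 59 of 73 members the change was less negative or more positive in CBF2Δc plants. The median difference was 0.19 for the members against 0.02 for all features. Centring arrays on the members moved both medians alike, to -0.10 and -0.26, so the turned sign is no test of the difference. The members' median was 0.11 without warm wild-type replicate 1. No member passed the test of that difference at any size, where 0.0274% of all features were lower and 0% higher by limma. At an unadjusted p below 0.05 there were 3 higher and 0 lower, and the share of all features at that level was not counted. The smallest adjusted p was 0.344 for ndhA (0.61, 95% interval 0.18 to 1.04). The largest difference was that of psbB (0.77, 95% interval 0.0019 to 1.53, adjusted p = 0.550). Its levels came from 9.80 in wild type and 9.06 in CBF2Δc in warmth to 8.36 and 8.38 in cold. The 95% interval of 62 members lay within 2-fold, so that for these a larger difference in response was outside the interval.

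Within each temperature, too, CBF2Δc plants had no called plastid gene. In the cold the members had a median difference from wild type of 0.06 against 0.04 for all features, a sign that turned after quantile normalization (-0.02) and without cold wild-type replicate 4 (-0.0033), with 28 below and 45 above 0. None passed at any size, where 0.446% of all features were called lower and 0.391% higher (1.4% and 4.03% at any size), 3 were higher at an unadjusted p below 0.05, and the intervals of 72 members lay within 2-fold. In warmth 55 members were lower than in wild type and 18 higher, with a median of -0.18 against 0.03 for all features (0.12 against 0.32 after centring on the members, and -0.09 without warm wild-type replicate 1). None passed there either, where 0.00686% of features were called lower and 0.0137% higher (0.00686% and 0.0206% at any size). In warmth 13 members were lower at an unadjusted p below 0.05. The shares of all features at that level were not counted at either temperature. The largest warm differences were ycf4 at -0.75 (adjusted p = 0.604) and psbB at -0.74 (adjusted p = 0.597). For ycf4 the arrays read 9.31, 8.89, 8.51 and 8.59 in wild type and 8.11, 7.82, 8.27 and 8.10 in CBF2Δc, which did not overlap.

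Overexpression of CBF1, CBF2 or CBF3 in warm plants was accompanied by small negative differences, none of them 2-fold. These comparisons, and that of warm CBF2Δc plants, share the 4 warm wild-type arrays, so their values are not independent. Of 73 members 61, 62 and 57 were lower than in wild type in CBF1OX, CBF2OX and CBF3OX, with medians of -0.22, -0.22 and -0.20 against 0.01, 0.00 and 0.00 for all features. Centring on the members moved the medians to 0.06, 0.03 and -0.06, against 0.29, 0.25 and 0.14 for all features. It moves members and other features alike, so the turned signs of the first 2 are no test of the differences. Without replicate 2 of the overexpressor the CBF2OX median was -0.12 and the CBF3OX median -0.13. The root markers had summed levels of 18.83 to 21.06, 18.41 to 19.68 and 18.52 to 18.77 in CBF1OX, CBF2OX and CBF3OX, the last 2 wholly below warm wild type at 19.75 to 21.41, and EXPA18 was called lower in CBF3OX (-1.0025, adjusted p = 0.00146). The leaf markers, at 23.04 to 25.09, 24.41 to 25.09 and 24.03 to 25.09, overlapped wild type. The part of the root markers in these differences was not tested. None was called, where 0.727%, 0.789% and 1.66% of features were called lower and 1.80%, 1.71% and 1.94% higher. At any size 2 members fell in CBF1OX (2.15% of features), 2 in CBF2OX (1.99%) and 5 in CBF3OX (4.85%). In CBF1OX and CBF2OX 0 rose (3.62% and 3.07% of features), and in CBF3OX 1 rose (3.92%). At an unadjusted p below 0.05 there were 20, 10 and 17 lower and 0, 0 and 1 higher. The shares of all features at that level were not counted, so these counts do not set the members apart from other features. The 95% intervals of 64, 71 and 66 members lay within 2-fold.

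One gene, psbE, which encodes the alpha subunit of cytochrome b559 in photosystem II, fell in each overexpressor. It read 11.36, 11.30, 11.22 and 11.07 in wild type, 10.75, 10.88, 10.63 and 10.62 in CBF1OX, 10.88, 10.36, 10.94 and 10.83 in CBF2OX, and 10.78, 10.45, 10.63 and 10.65 in CBF3OX. None of these 12 arrays reached the lowest wild-type array. The changes were -0.52 ± 0.14 (adjusted p = 0.0288), -0.49 ± 0.14 (adjusted p = 0.0433) and -0.61 ± 0.14 (adjusted p = 0.00736). The last kept its side of the threshold under 21 of 22 alternatives, with adjusted p from 0.00282 to 0.0696, whereas the first did so under 12 of 22 (0.00765 to 0.572) and the second under 10 of 22 (0.0245 to 0.300). In CBF2Δc plants psbE stood at -0.32 (adjusted p = 0.774), and in the cold it fell to 10.41 ± 0.32 in wild type (SD, n = 4). The other genes that fell were psbC in CBF2OX and CBF3OX (-0.45 in each), ndhK in CBF1OX (-0.69) and CBF3OX (-0.59), and atpI (-0.74), for subunit a of the ATP synthase, with petN (-0.74), for a small subunit of the cytochrome b6f complex, in CBF3OX. The assembly gene ycf3 rose in CBF3OX (0.73). For ndhK wild-type replicates 1 and 2 (11.04 and 11.06) stood above 3 and 4 (10.44 and 10.34), and CBF1OX ran from 9.77 to 10.45. These 7 further results passed under 9 to 15 of their 22 alternatives, and petN was chosen after its values were seen.

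By complex the warm overexpressors differed little from each other. Photosystem II had medians of -0.26, -0.28 and -0.34 in CBF1OX, CBF2OX and CBF3OX, with 13 of 15 genes below wild type in each. The NDH genes had -0.38, -0.22 and -0.40, the cytochrome b6f genes -0.38, -0.21 and -0.23, and photosystem I -0.09, -0.06 and 0.04. The small ribosomal subunit had -0.10, -0.08 and -0.01 and the large -0.17, -0.19 and -0.06. For the ATP synthase they were -0.27, -0.35 and -0.28, and for the RNA polymerase -0.14, -0.23 and -0.11. The assembly genes of photosystem I had -0.105, -0.0038 and 0.12, and the other plastid genes -0.22, -0.19 and -0.20. The gene rbcL stood at -0.51, -0.28 and -0.28 and passed in none. Differences among the overexpressors were not tested. The median member differed between the second and the first line by -0.08 for CBF1OX, 0.03 for CBF2OX, 0.09 for CBF3OX, 0.07 for warm CBF2Δc and 0.03 for cold CBF2Δc. In wild type, which has no lines, replicates 3 and 4 differed from 1 and 2 by -0.26 in warmth and -0.26 in cold, at least as large as the overexpressor medians measured against the same warm arrays. The widest difference of each construct was that of psbH in CBF1OX (10.51 in G5 and 9.84 in G39), rpoC1 in CBF2OX (9.27 in E2 and 9.99 in E24), rps3 in CBF3OX (11.24 in A28 and 11.67 in A30) and, in cold plants, psaA in CBF2Δc (6.69 in DN89 and 7.31 in DN96).

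Values from the other organelle and from the nuclear partners were few. Of 11 mitochondrial genes with a probe set 3 passed the filter, and in wild type the cold changes were -0.18 for nad4, -0.06 for cox2 and -0.69 for cox1, of which cox1 fell (adjusted p = 0.00455) and none was called. Of 53 nuclear genes of plastid transcription and RNA handling 2 had a named probe set that was tested, both for RNA-binding proteins of the chloroplast. CP33B fell in cold wild type (-0.39, adjusted p = 0.0208) and in cold CBF2Δc plants (-0.49, adjusted p = 0.00424), and CP29B stood at -0.08 (adjusted p = 0.491) and 0.07 (adjusted p = 0.564). Neither passed in a warm comparison, RPOTmp lay below the filter, and the others, among them the sigma factors that direct the plastid RNA polymerase, were not analysed here.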

How the data were processed

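RNA from 28 shoot samples was amplified, biotinylated and hybridised to an Affymetrix array, per the labels' protocols. The authors deposited 1 log2 value for each probe set and array. The submitters' processing notes name GCRMA and limma, with versions not given in the sources used here. Values ran from 2.16 to 14.53, from which the log base was taken, and 11.6% of them lay at the lowest value, so changes of dim probe sets depend on that floor. Precision is set by the number of arrays. Of 22810 probe sets, 13521 had 1 gene in the platform annotation, 493 several, 8732 none, and 64 were controls. Genes were named through the RefSeq gene table by gene identifier. A gene of the inverted repeat whose copies share a symbol was counted as 1 gene, which applied to 7 genes. No probe set was named for the overexpressed genes, so they give no check of the labels.

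Features with log2 above 4 in at least 4 arrays were tested, with the probe set of the highest mean for each gene. All 28 samples entered 1 limma 3.58.1 model of 7 group means (R 4.3.3, lmFit and eBayes, statmod 1.5.0), from which 8 contrasts were taken and adjusted by Benjamini-Hochberg over 14577 features. Levels carry the SD of 4 arrays, changes the SE of the fit, and tests are two-sided. Scripts for the fit were tested on simulated data. Genes were named if called, if first or last of their complex by change in cold wild type, if in a listed transcription unit, if among the 3 brightest or 3 dimmest, or if widest apart between the lines of a construct. The members and lists were chosen with earlier results of these data known. Same-numbered cold and warm CBF2Δc samples came from the same lines and deviated together (correlations 0.28, 0.23, 0.15 and 0.28). Cold replicate 3 matched warm replicate 4 of its line best, so a shared line and pairing by number cannot be told apart. In wild type these correlations were 0.07, -0.04, 0.08 and 0.01. The mean over members there differed between same-numbered cold and warm arrays by -0.65, -0.67, -0.67 and -0.71. The main fit used no pairing. Alternatives changed the scaling, the filter, the probe set rule, the samples in the fit, the treatment of lines, the moderation and each replicate in turn. Python 3.11.15 with pandas 2.3.3 and matplotlib 3.10.9 drew the figures.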

Additional observations from a re-analysis of the deposited data

Results flagged for a closer look

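Of 196 groups of 4 arrays examined, over 17 genes and 11 means of gene groups, 4 held an array far from the other 3, where chance alone marks about 1 in 20 groups. The gene petG read 8.07 in replicate 4 of warm wild type against 8.41 to 8.46 in the others. In CBF1OX replicate 1, psbD read 9.61 against 8.69 to 8.76 and psbN read 8.25 against 8.13 to 8.15. The gene rpl33 read 11.06 in replicate 1 of warm CBF2Δc plants against 10.93 to 10.95. Each such array was left out in turn where its group was compared, and these gaps were not examined further.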

How the results depend on the processing

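No alternative turned the direction of a called gene. When arrays were centred on the members, the members' medians turned in cold wild type (0.25) and cold CBF2Δc plants (0.15). They also turned in CBF1OX, CBF2OX, warm CBF2Δc plants and the difference in response. That centring moves all features of an array alike, so these turns are no test of the members relative to other features. The median of cold CBF2Δc against cold wild type turned under quantile normalization (-0.02) and without cold wild-type replicate 4 (-0.0033). Without a minimum fold the 14 genes called lower in cold wild type became 58, the 0 in CBF1OX and CBF2OX became 2 in each, the 0 lower and 0 higher in CBF3OX became 5 and 1, and the 5 lower and 1 higher in cold CBF2Δc plants became 48 and 2. Centring arrays on the members left 0 called lower in wild type and 4 lower at any size. In CBF2Δc plants it left 1 called lower, 2 higher and 4 lower at any size. The shared shift is removed by construction there, and the medians of all features became 0.85 and 0.57. With line DN89 alone 3 were called lower and 21 were lower at any size. With line DN96 alone it was 8, 0 called higher and 27, and with line means 29 were lower at any size, fits that hold fewer samples. Leaving out 1 replicate gave 9 to 21 lower and 0 to 1 higher in wild type (0 without warm replicate 4), and 3 to 6 and 0 to 1 in CBF2Δc plants. The counts lower at any size were then 52 to 59 and 34 to 42. Alternatives added after seeing the data were 3: line as a fixed term, the counts at any size and the overexpressor genes at any size. The replicate block, main in no fit, left 14 and 1 in wild type and changed no count of calls by over 1.5 times. In CBF1OX, CBF2OX, CBF3OX, warm CBF2Δc plants, cold CBF2Δc against cold wild type and the difference in response, 0 were called under every alternative with the 2-fold minimum. Signal near the background floor limits petD and psaC.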
